A study of Mus musculus with 4 samples.

Results

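The AP-1 and immediate early genes described here are 10 mouse genes chosen by symbol, namely *Jun*, *Junb*, *Jund*, *Fos*, *Fosl2*, *Atf3*, *Egr1*, *Ier3*, *Myc* and *Klf6*. Of these, 8 are listed in at least 1 of the 4 deposited tables, which together list 3113 genes, and *Fos* and *Atf3* are listed in none. The tables come from RNA sequencing of the liver of CypD-/- and WT mice 24 h after an intraperitoneal injection of 40 mg/kg LPS, the bacterial endotoxin, or of PBS. CypD-/- mice carry a deletion in *Ppif*, which encodes cyclophilin D (CypD), a regulator of the mitochondrial permeability transition pore, and WT mice have the intact gene. The 4 groups were CypD-/- + LPS, WT + LPS, CypD-/- + PBS and WT + PBS, all male C57BL/6 mice of 16 to 20 weeks. The methods give RNA of 3 mice pooled into 1 library per group, and figure legends state n = 5 instead.

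Each table compares 2 libraries and holds, for each gene past a fold change of 1.5 and a q-value of 0.05, the fold change and the q-value that the authors computed. The q-value is a false discovery rate from Kal's test on the reads of the 2 libraries, so it compares those libraries and not the conditions. The tables hold no levels per library and no read counts, the depth is unknown, and no fold has a replicate error. For genes absent from a table no value is known, and they cannot be called unchanged. In bulk liver RNA, fewer cells of a type and less RNA per cell cannot be told apart. *Ppif* was 2.72-fold lower in CypD-/- + PBS than in WT + PBS livers (q = 0.00254) and is not listed between the LPS-treated genotypes, whose labels therefore have no such check here. In WT mice *Ppif* was 2.20-fold lower after LPS (q = 0.00615). All mice were described as male, yet 3 genes of the Y chromosome, *Ddx3y*, *Eif2s3y* and *Uty*, were 14.4-fold, 24.9-fold and 13.6-fold lower in WT + LPS than in WT + PBS livers. In CypD-/- + LPS livers *Ddx3y* was 14.3-fold and *Eif2s3y* 29.2-fold higher than in WT + LPS livers. *Eif2s3y* was also 1.98-fold higher in CypD-/- + PBS than in WT + PBS livers (q = 0.0207). The WT + LPS library thus stands apart in these genes, it enters every WT LPS value and every comparison of LPS-treated genotypes below, and no other WT + LPS library is given. *Xist* of the X chromosome and *Kdm5d* of the Y chromosome were also looked up and are not listed in any comparison.

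AP-1 is a family of transcription factor dimers built from basic leucine zipper (bZIP) proteins of the JUN, FOS and ATF groups. JUN proteins pair with each other or with FOS and ATF proteins, and the choice of partner sets which DNA site is bound. Immediate early genes are switched on within minutes of a stimulus from factors already present in the cell, mostly through MAP kinases and NF-kB, and many of their mRNAs and proteins are short-lived. In the liver, *Jun*, *Fos*, *Myc* and *Egr1* are known for their rapid induction after partial hepatectomy and injury. The libraries were made 24 h after LPS, well after the first wave that the name of the group refers to.

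The promoters of *Jun*, *Klf6* and *Ier3* are printed because, of the 5 among the 10 genes that rose in both genotypes, *Klf6* had the LPS fold most reduced in CypD-/- mice and *Ier3* and *Jun* the folds most increased. Each runs from 250 bases before to 50 bases after the start of the gene, 5′ to 3′ on the gene's own strand. Sequences and starts are those of RefSeq on GRCm38.p6. Promoters of 8 of the 10 genes were searched, and those of *Egr1* and *Myc* were not. Capitals mark the CRE-like AP-1 site TGACATCA in *Jun* and *Klf6*, the E-box CACGTG in *Klf6*, and an NF-kB motif in *Ier3*.
Jun promoter, chr4:95052173-95052472, minus strand: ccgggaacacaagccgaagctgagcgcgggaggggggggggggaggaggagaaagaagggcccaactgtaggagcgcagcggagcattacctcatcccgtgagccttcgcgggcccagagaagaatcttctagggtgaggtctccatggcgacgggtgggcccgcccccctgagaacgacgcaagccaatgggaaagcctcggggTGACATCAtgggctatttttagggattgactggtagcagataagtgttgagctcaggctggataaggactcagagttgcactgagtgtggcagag
Klf6 promoter, chr13:5861239-5861538, plus strand: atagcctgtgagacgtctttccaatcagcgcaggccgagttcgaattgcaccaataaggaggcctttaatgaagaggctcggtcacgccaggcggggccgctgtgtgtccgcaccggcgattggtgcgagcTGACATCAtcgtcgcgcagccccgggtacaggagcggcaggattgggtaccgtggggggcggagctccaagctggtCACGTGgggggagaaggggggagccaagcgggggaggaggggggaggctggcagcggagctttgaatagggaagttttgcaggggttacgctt
Ier3 promoter, chr17:35821463-35821762, plus strand: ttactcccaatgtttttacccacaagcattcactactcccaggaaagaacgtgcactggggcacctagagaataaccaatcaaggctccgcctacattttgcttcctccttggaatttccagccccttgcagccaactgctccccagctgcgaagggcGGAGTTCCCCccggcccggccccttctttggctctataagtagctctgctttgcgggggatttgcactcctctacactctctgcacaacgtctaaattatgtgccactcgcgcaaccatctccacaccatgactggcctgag

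TGACATCA, a site known to be bound by dimers of JUN with ATF proteins, lies 45 to 38 bases before the *Jun* start and 119 to 112 bases before the *Klf6* start. It is present in 3.62% of the 32851 promoters of the same length, counting both strands. The E-box CACGTG, which MYC with its partner MAX is known to bind, lies 43 to 38 bases before the *Klf6* start and occurs in 7.15% of promoters. The NF-kB motif lies 92 to 83 bases before the *Ier3* start, is also found in the *Fos* and *Fosl2* promoters, and occurs in 4.51% of promoters. The motif TGACGTA was found in *Atf3* and *Fos* (1.27% of promoters) and the GC box GGGGCGGGG in *Atf3* (11.4% of promoters). The remaining searches, on both strands, found no match in these 8 promoters. They were the AP-1 site TGACTCA (5.20% of promoters), the full CRE TGACGTCA (1.79%), the EGR site GCGTGGGCG (0.612%) and the CArG box (1.63%). These matches describe the letters of the windows, and the motifs were chosen after the promoters had been seen. The RefSeq starts used for the windows can differ from the GENCODE gene ends given further below. The *Jund* window, 70697489 to 70697788, lies wholly before the GENCODE gene. The *Atf3* window, 191183284 to 191183583, lies inside its GENCODE span.

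**Figure D1:**
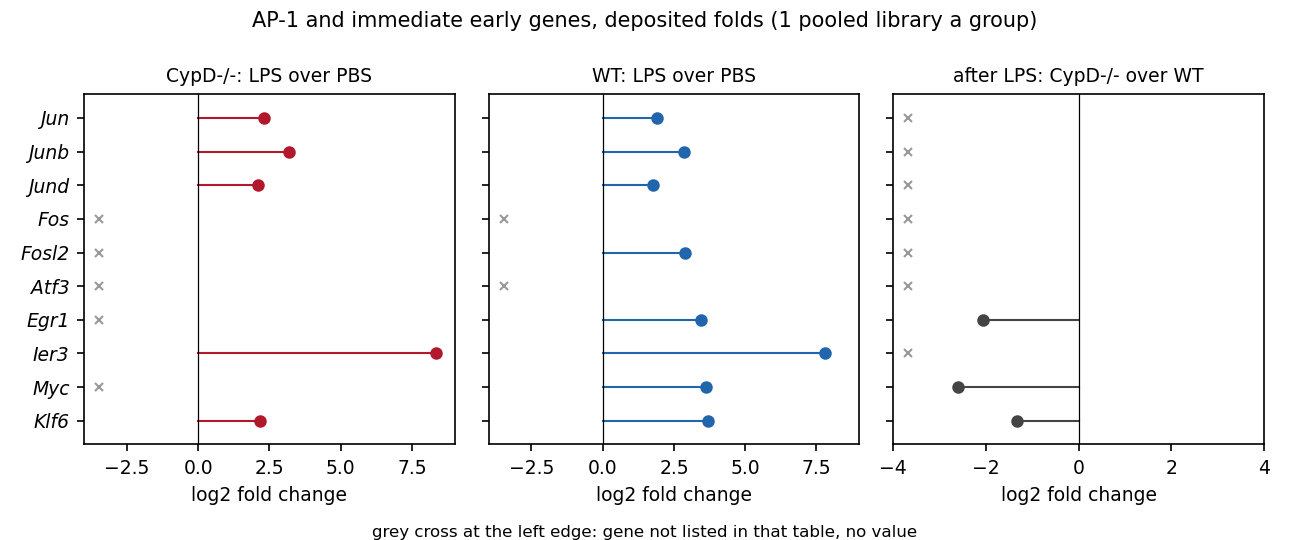
Log2 fold change of each of the 10 genes, by the deposited tables, for LPS over PBS in CypD-/- mice (left), LPS over PBS in WT mice (middle) and CypD-/- over WT after LPS (right), each from 1 pooled library a group. Points and lines show listed genes and grey crosses at the left edge show genes not listed, which have no value, and 5 genes are listed in CypD-/- mice, 8 in WT mice and 3 in the direct comparison.

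After LPS, 5 of the 10 genes were listed as higher in CypD-/- mice, 8 were listed as higher in WT mice, and none was listed as lower in either genotype. Among the 3113 genes listed in any table, 14.4% were listed as higher and 32.1% as lower after LPS in CypD-/- mice, and 29.2% as higher and 62.1% as lower in WT mice. As shares of the 8 genes that are themselves listed in a table, the counts were 62.5% in CypD-/- mice and all in WT mice. The genes that rose in both genotypes were the 3 JUN genes, *Ier3* and *Klf6*. *Fosl2*, *Egr1* and *Myc* are listed as higher in WT mice alone. Of all 910 genes listed as higher in WT mice, 39.8% are also listed as higher in CypD-/- mice.

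The JUN genes encode the proteins without which FOS proteins cannot form an AP-1 dimer. *Junb*, whose product is a weaker activator than c-JUN on many promoters, rose 9.02-fold in CypD-/- mice and 7.22-fold in WT mice, with q-values listed as 0 in both. It was the highest of the 3 JUN genes in either genotype, at rank 109 of the 443 finite rises in CypD-/- mice and rank 238 of 904 in WT mice. *Jun*, which encodes c-JUN, rose 4.93-fold in CypD-/- mice (q = 0.00459) and 3.77-fold in WT mice (q = 0.00122). *Jund*, the JUN gene that resting cells are known to express most steadily, rose 4.26-fold in CypD-/- mice (q = 3.48e-08) and 3.40-fold in WT mice (q = 9.58e-09). The median rise of all listed genes was 3.70-fold in CypD-/- mice and 3.67-fold in WT mice. *Jun* exceeded 58.9% of the rises in CypD-/- mice and 51.1% in WT mice, and *Jund* 54.0% in CypD-/- mice and 46.9% in WT mice. The order *Junb*, *Jun*, *Jund* was the same in both genotypes. None of the 3 is listed in a comparison of CypD-/- with WT mice, after LPS or after PBS.

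The partners of the JUN proteins gave fewer values. *Fosl2*, which encodes the FOS family member FRA-2, rose 7.35-fold in WT mice (q = 0.000844, rank 231 of 904) and is not listed for CypD-/- mice or in the direct comparison, so whether its response differed between the genotypes cannot be read from these tables. *Fos*, which encodes the founding FOS protein, and *Atf3*, a stress-induced repressor of inflammatory genes in macrophages, are not listed anywhere, which at 24 h leaves their levels unknown.

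*Ier3*, which encodes a short-lived regulator of cell survival and a known NF-kB target, had by far the highest folds of the group. It rose 323-fold in CypD-/- mice (q = 8.04e-13), rank 2 of the 443 finite rises, and 221-fold in WT mice (q = 2.96e-06), rank 1 of 904. On the log2 scale these were 8.34 in CypD-/- mice and 7.79 in WT mice. The levels in the PBS libraries, against which folds of this size were formed, are not given here. *Ier3* is not listed in either comparison between the genotypes.

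*Egr1*, *Myc* and *Klf6* were the genes that were lower in CypD-/- + LPS than in WT + LPS livers, 3 of the 10, with none higher. Of all listed genes 11.8% were lower and 19.1% higher in this comparison. It shares the CypD-/- + LPS and WT + LPS libraries with the LPS comparisons above, so the values are set side by side and are not separate support. *Myc*, the growth-promoting basic helix-loop-helix factor, was 6.07-fold lower in CypD-/- + LPS livers (q = 1.88e-05, rank 22 of 368 falls), and rose 12.3-fold after LPS in WT mice (q = 1.33e-07). *Egr1*, a zinc finger factor that switches on growth and cytokine genes, was 4.17-fold lower in CypD-/- + LPS livers (q = 1.01e-05, rank 34 of 368), and rose 11.0-fold after LPS in WT mice (q = 7.05e-10). *Klf6*, a Krüppel-like zinc finger factor induced in injured liver, was 2.52-fold lower in CypD-/- + LPS livers (q = 5.3e-05, rank 129 of 368). The median fall in this comparison was 2.14-fold, and the falls of *Myc*, *Egr1* and *Klf6* were larger than 94.0%, 90.8% and 64.9% of all falls.

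*Klf6* is listed in all 3 of these comparisons. It rose 4.54-fold after LPS in CypD-/- mice (q = 0.000608) and 12.8-fold in WT mice (q listed as 0), so the LPS fold of WT mice was 2.82 times that of CypD-/- mice. Multiplying listed folds placed *Klf6* at 5.09 times the WT + PBS level in CypD-/- + LPS livers, against 12.8 times in WT + LPS livers. Its derived level in CypD-/- + PBS livers was 1.12 times that of WT + PBS livers. The same product gave 2.65 times the WT + PBS level for *Egr1* in CypD-/- + LPS livers, against 11.0 times in WT + LPS livers. For *Myc* it gave 2.03 times in CypD-/- + LPS livers, against 12.3 times in WT + LPS livers. Both derived levels in CypD-/- + LPS livers were above that of WT + PBS livers. They are products of folds without an error, and neither gene is listed for LPS over PBS in CypD-/- mice. None of the 10 genes is listed between CypD-/- + PBS and WT + PBS livers, a comparison in which 2.79% of all listed genes were higher and 5.08% lower.

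**Figure D2:**
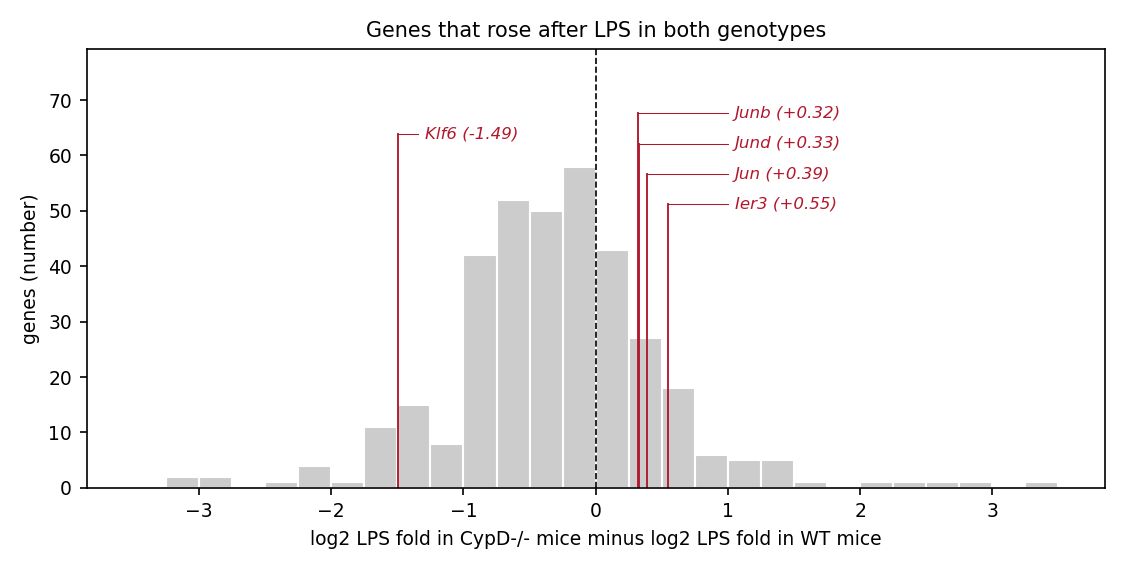
Histogram of the log2 LPS fold in CypD-/- mice minus the log2 LPS fold in WT mice, for the 356 genes that rose with finite folds in both genotypes, with the number of genes on the vertical axis and red lines at the 5 genes of the group. *Ier3* (0.55), *Jun* (0.39), *Jund* (0.33) and *Junb* (0.32) lie right of 0 and *Klf6* (-1.49) left of it, while the median of all 356 genes is -0.30.

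The 5 genes that rose in both genotypes lay on both sides of the median of all genes that did so. The CypD-/- and WT LPS comparisons share no library. Among the 356 genes that rose in both with finite folds, 246 (69.1%) had the smaller fold in CypD-/- mice and 110 (30.9%) the larger, and the median log2 difference was -0.30. The folds of *Ier3*, *Jun*, *Jund* and *Junb* were 1.46, 1.31, 1.25 and 1.25 times as large in CypD-/- as in WT mice. Between 82.0% and 89.6% of the 356 genes had a lower difference than these 4 genes. For *Klf6* that share was 5.90%. With 1 library a group, none of these differences has an error, and genotype and variation between pools cannot be told apart.

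The wider list of 51 immediate early genes, of which *Egr1*, *Ier3*, *Klf6* and *Myc* are part, was counted in the same way. After LPS, 14 were higher and 1 lower in CypD-/- mice, with a median log2 fold of 2.18 for the listed genes against -1.0 for all listed genes. In WT mice, 25 were higher and 3 lower, with a median of 2.47 against -1.38. The shares of the 3113 genes listed in any table were 14.4% higher and 32.1% lower in CypD-/- mice. In WT mice these shares were 29.2% higher and 62.1% lower. All 14 genes of the list that rose in CypD-/- mice also rose in WT mice (56% of its WT rises). A further 11 rose in the WT table alone. Of the 14, 8 had the larger fold in CypD-/- mice and 6 the smaller. In the direct comparison after LPS, 11 were lower in CypD-/- mice and none was higher. The median log2 fold of those listed was -1.28, against 0.91 for all listed genes. The shares of the 3113 genes listed in any table were 11.8% lower and 19.1% higher. All 11 had also risen after LPS in WT mice, and the WT + LPS library enters both comparisons, so these counts are not separate support. They were not compared with other genes that rose in WT mice. Without *Egr1*, *Klf6* and *Myc*, 8 were lower, and 5 of these at a fold of at least 2. In no table were 23 of the 51 listed.

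**Figure D3:**
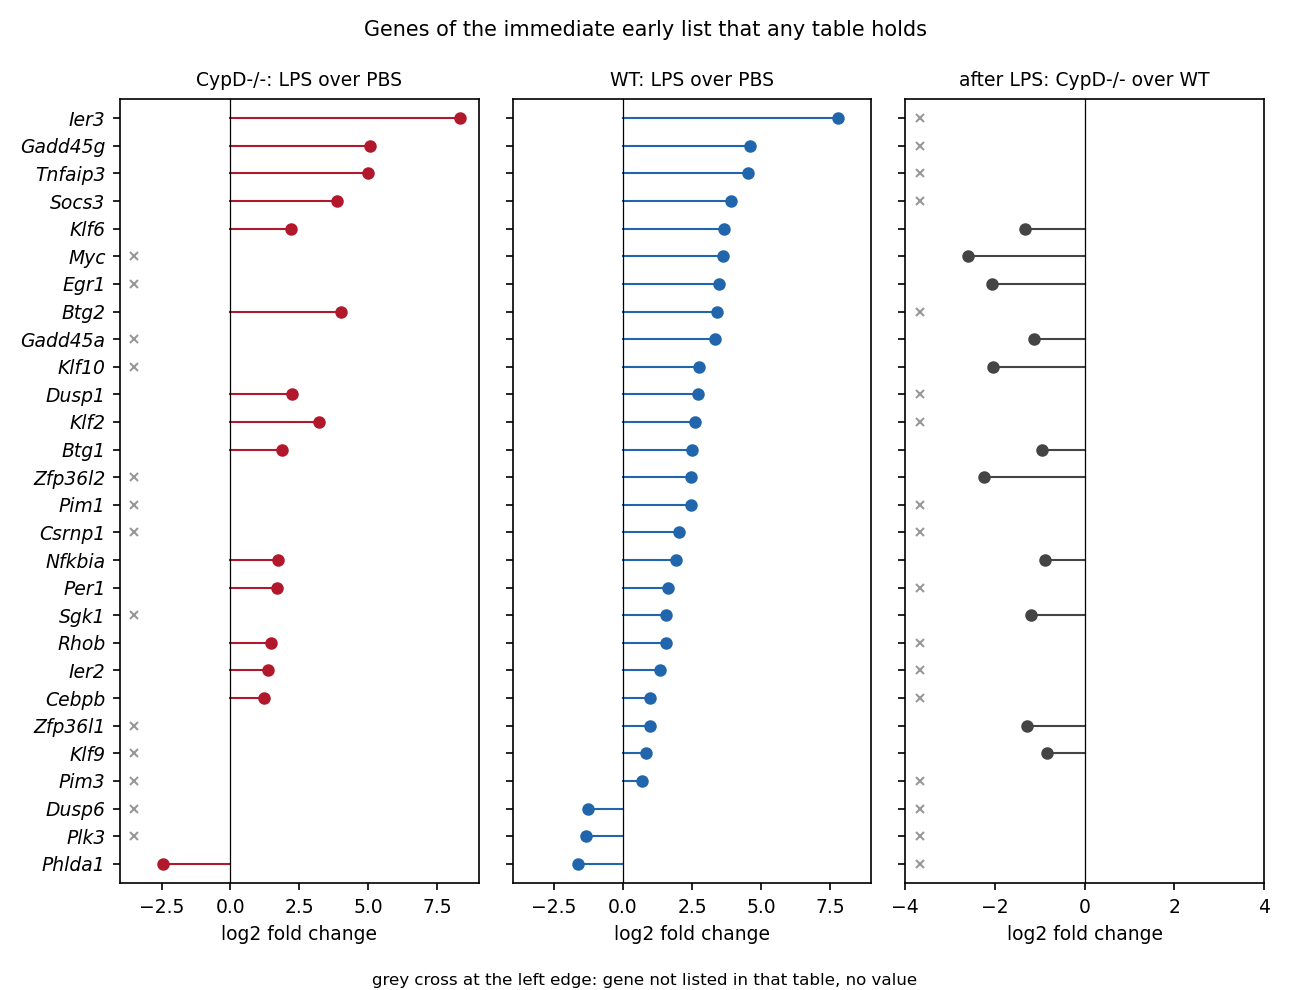
Log2 fold changes of the listed genes of the immediate early list, by the deposited tables, for LPS over PBS in CypD-/- mice and in WT mice and for CypD-/- over WT after LPS, each from 1 pooled library a group. Grey crosses at the left edge mark genes not listed, which have no value there, and 14 genes rose in CypD-/- mice, 25 rose in WT mice, and 11 are lower in the direct comparison.

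Besides *Ier3* and *Klf6*, 12 genes of the immediate early list rose in both genotypes. *Tnfaip3*, which encodes the NF-kB inhibitor A20, rose 31.4-fold in CypD-/- mice and 23.4-fold in WT mice. *Socs3*, the inhibitor of JAK and STAT3 signalling, rose 14.5-fold in CypD-/- mice and 15.3-fold in WT mice. *Dusp1*, a phosphatase that turns off JNK and p38, rose 4.69-fold in CypD-/- mice and 6.65-fold in WT mice. The growth arrest gene *Gadd45g* rose 33.6-fold in CypD-/- mice and 24.6-fold in WT mice. *Btg2*, an antiproliferative gene, rose 16.2-fold in CypD-/- mice and 10.7-fold in WT mice. *Nfkbia*, which encodes the NF-kB inhibitor IκBα, rose 3.34-fold in CypD-/- mice, against 3.81-fold in WT mice, and was 1.83-fold lower in CypD-/- + LPS than in WT + LPS livers. *Btg1* rose 3.70-fold in CypD-/- mice, against 5.61-fold in WT mice, and was 1.94-fold lower in the direct comparison.

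Of the 11 immediate early genes that were lower in CypD-/- + LPS livers, only *Klf6*, *Btg1* and *Nfkbia* are also listed as risen in CypD-/- mice. The other 8 were *Egr1*, *Myc*, *Klf9*, *Klf10*, *Zfp36l1*, *Zfp36l2*, *Gadd45a* and *Sgk1*. *Zfp36l2*, which encodes a protein that destabilizes AU-rich mRNAs, was 4.73-fold lower in CypD-/- + LPS livers and rose 5.58-fold in WT mice. *Klf10*, a TGF-beta induced repressor, was 4.13-fold lower in CypD-/- + LPS livers and rose 6.76-fold in WT mice. *Gadd45a*, a DNA damage response gene, was 2.17-fold lower in CypD-/- + LPS livers and rose 10.1-fold in WT mice. *Zfp36l1* was 2.43-fold lower, *Sgk1* 2.30-fold lower and *Klf9* 1.79-fold lower in CypD-/- + LPS livers. The derived levels in CypD-/- + LPS livers, relative to WT + PBS livers, were 1.18 for *Zfp36l2*, 1.64 for *Klf10*, 4.63 for *Gadd45a*, 0.806 for *Zfp36l1*, 1.30 for *Sgk1* and 0.996 for *Klf9*. *Phlda1*, the gene of the list that was lower in both, fell 5.41-fold in CypD-/- mice and 3.08-fold in WT mice. *Dusp6*, a phosphatase specific for ERK, was the only gene of the list in the PBS comparison, 3.23-fold lower in CypD-/- + PBS than in WT + PBS livers.

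The JUN proteins can also pair with other bZIP factors. The list of AP-1 and related bZIP factors has 26 genes, which include 6 of the 10 genes, and 15 are in no table. After LPS, 5 were higher and 1 lower in CypD-/- mice, with a median log2 fold of 2.05 for those listed against -1.0 for all listed genes. In WT mice 7 were higher and 3 lower, with a median of 1.58 against -1.38. In the direct comparison 1 was higher and 2 were lower, with a median of -1.08 against 0.91. Among the 3113 genes listed in any table, 14.4% were higher after LPS in CypD-/- mice and 29.2% in WT mice. Between the LPS-treated genotypes 19.1% of them were higher and 11.8% lower. *Atf4*, the effector of the integrated stress response, rose 2.92-fold in CypD-/- mice and 3.41-fold in WT mice. *Ddit3*, which encodes CHOP, rose 4.01-fold in CypD-/- mice and is not listed for WT mice. *Maf*, a large MAF family factor, fell 4.88-fold in WT mice. *Atf1*, a CREB family factor, was 2.46-fold lower in CypD-/- + LPS than in WT + LPS livers and rose 2.65-fold in WT mice. *Atf6*, a sensor of endoplasmic reticulum stress, was 2.12-fold lower in CypD-/- + LPS livers and rose 2.05-fold in WT mice. *Atf5* went the other way, 2.27-fold higher in CypD-/- + LPS livers, with a fall of 5.22-fold in WT mice.

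The kinases upstream of AP-1 were counted as mRNAs. For comparison, 14.4% of the 3113 genes listed in any table were higher after LPS in CypD-/- mice and 29.2% in WT mice. Of 28 genes for JNK, p38 and ERK kinases and their ternary complex factors, 1 was higher and 1 lower after LPS in CypD-/- mice, and 3 were higher and 2 lower in WT mice, and 23 are in no table. *Mapk3*, which encodes ERK1, fell 4.73-fold in WT mice, with no value for CypD-/- mice. *Mapkapk2*, the p38 substrate kinase, rose 2.27-fold in CypD-/- mice and 2.21-fold in WT mice. *Map2k3*, which activates p38, fell 2.26-fold in CypD-/- mice and 1.76-fold in WT mice. *Map3k8*, which links TLR4 to ERK, rose 8.66-fold in WT mice. *Elk4*, a ternary complex factor, was 2.07-fold lower in CypD-/- + LPS than in WT + LPS livers and rose 2.10-fold in WT mice. These are mRNA values and say nothing of kinase activity.

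Of 26 genes known as AP-1 targets, 6 were higher and 2 lower after LPS in CypD-/- mice, with a median log2 fold of 1.80 for those listed against -1.0 for all listed genes. In WT mice 6 were higher and 2 lower, with a median of 1.29 against -1.38. The shares of the 3113 genes listed in any table were 14.4% higher and 32.1% lower in CypD-/- mice. In WT mice these shares were 29.2% higher and 62.1% lower. The AP-1 targets that rose were not identical. *Hmox1* is listed as higher in CypD-/- mice alone, and *Vim*, which encodes vimentin, in WT mice alone (2.42-fold). Between the LPS-treated genotypes, CypD-/- mice had 2 higher and 1 lower, while 17 of the 26 are in no table. Here 19.1% of all listed genes were higher and 11.8% lower. *Timp1*, a metalloproteinase inhibitor, rose 29.8-fold in CypD-/- mice, against 146-fold in WT mice. It was 2.27-fold lower in CypD-/- + LPS than in WT + LPS livers. The derived *Timp1* level in CypD-/- + PBS livers was 2.17 times that of WT + PBS livers, a comparison in which it is not listed. *Plaur*, the urokinase receptor, rose 24.3-fold in CypD-/- mice and 34.0-fold in WT mice. The glutathione synthesis genes moved down after LPS. *Gclm* was 2.23-fold lower in CypD-/- and 3.67-fold lower in WT mice, and *Gclc* 2.45-fold lower in CypD-/- and 3.48-fold lower in WT mice. In the direct comparison *Gclm* was 1.91-fold higher in CypD-/- + LPS than in WT + LPS livers. *Hmox1*, the inducible heme oxygenase, rose 3.88-fold in CypD-/- mice and is not listed for WT mice. Several of these genes are also targets of NF-kB or NRF2, and their part in any AP-1 response was not tested.

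**Figure D4:**
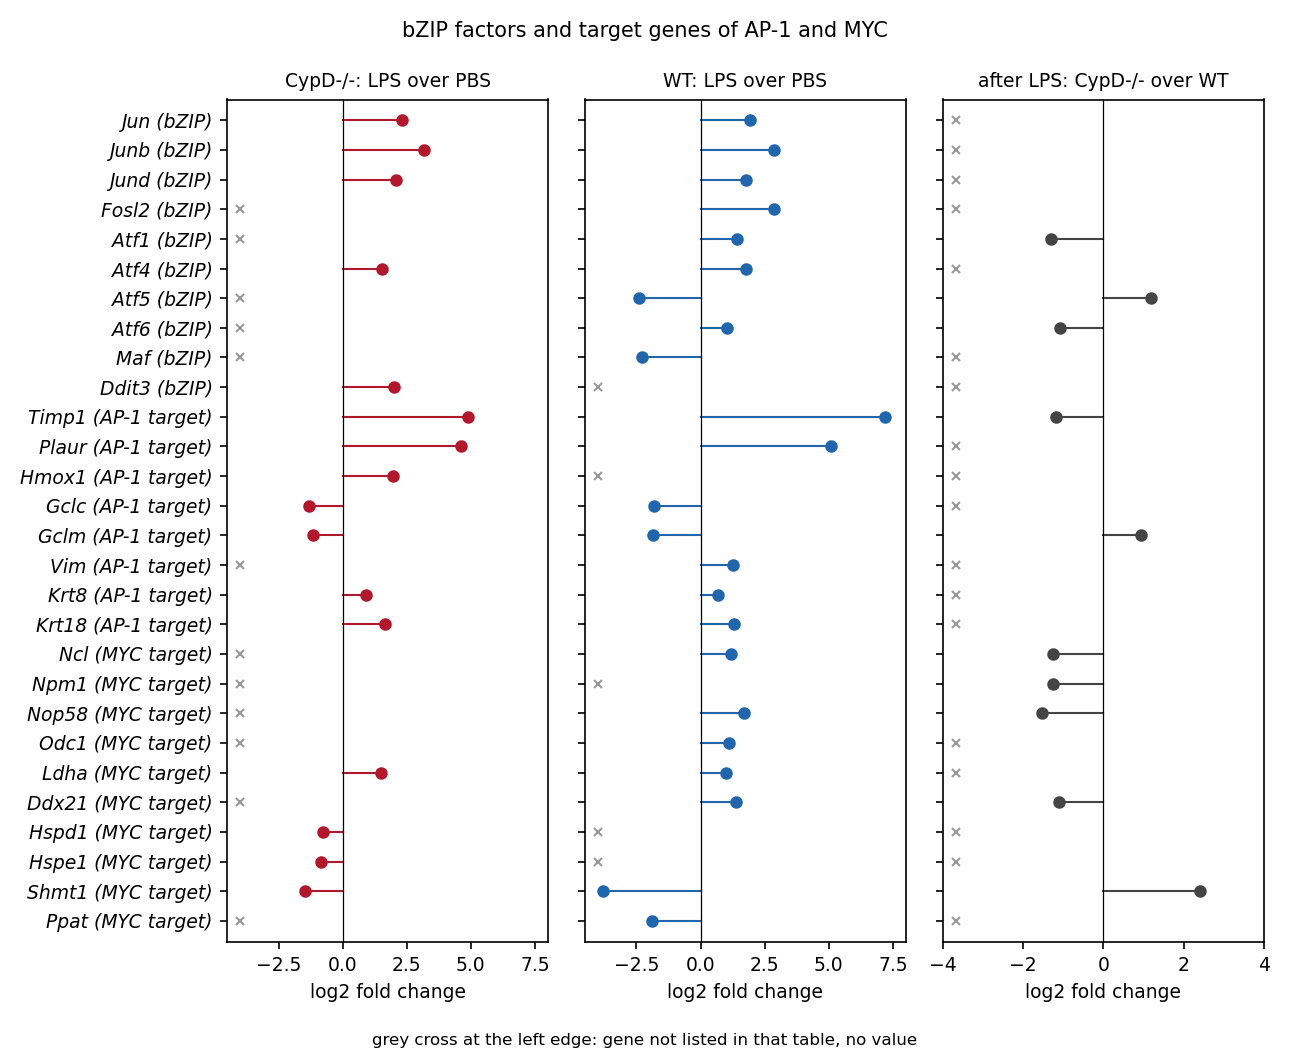
Log2 fold changes of listed bZIP factors, AP-1 target genes and MYC target genes, by the deposited tables, for LPS over PBS in CypD-/- and WT mice and for CypD-/- over WT after LPS, each from 1 pooled library a group. Grey crosses at the left edge mark genes not listed, which have no value. In the direct comparison *Timp1* (2.27-fold), *Nop58* (2.92-fold), *Npm1* (2.39-fold), *Ncl* (2.38-fold), *Ddx21* (2.15-fold), *Atf1* (2.46-fold) and *Atf6* (2.12-fold) lie below 0. Among the genes above 0 there are *Shmt1* (5.27-fold), *Atf5* (2.27-fold) and *Gclm* (1.91-fold).

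The genes around *Myc* gave few values. Of 15 genes of the MYC network, *Myc* included, *Mxd1*, an antagonist that competes with MYC for MAX, rose 8.13-fold in CypD-/- mice and 8.98-fold in WT mice. *Mlxipl*, the glucose-responsive factor ChREBP, fell 2.19-fold in CypD-/- mice. Apart from *Myc*, none of the 15 is listed between the genotypes. Of 25 genes known as MYC targets, 15 are in no table. After LPS, 1 was higher and 3 lower in CypD-/- mice, with a median log2 fold of -0.79 for those listed against -1.0 for all listed genes. In WT mice 5 were higher and 2 lower, with a median of 1.10 against -1.38. In the direct comparison 4 were lower and 1 higher, with a median of -1.25 against 0.91. Among the 3113 genes listed in any table, 14.4% were higher after LPS in CypD-/- mice and 29.2% in WT mice. Between the LPS-treated genotypes 11.8% of them were lower and 19.1% higher. The 4 MYC targets that were lower encode nucleolar proteins of ribosome production. *Nop58* was 2.92-fold lower, *Npm1* 2.39-fold lower, *Ncl* 2.38-fold lower and *Ddx21* 2.15-fold lower in CypD-/- + LPS than in WT + LPS livers. After LPS in WT mice *Nop58* rose 3.19-fold, *Ddx21* 2.63-fold and *Ncl* 2.25-fold, and *Npm1* is not listed. The other MYC targets that rose in WT mice are not listed between the LPS-treated genotypes. The WT + LPS library enters both comparisons, and a link of these values to *Myc* was not tested. *Npm1* has many near-identical pseudogenes, so its value is uncertain. Multiplying folds gave levels in CypD-/- + LPS livers of 1.09 for *Nop58*, 1.22 for *Ddx21* and 0.947 for *Ncl*, relative to WT + PBS livers. The MYC target that was higher in the direct comparison was *Shmt1*, a folate enzyme abundant in hepatocytes. It was 5.27-fold higher in CypD-/- + LPS livers and fell 2.76-fold after LPS in CypD-/- mice and 14.1-fold in WT mice.

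Cell type markers moved with the LPS comparisons, and their part in the values of the 10 genes was not tested. For comparison, 14.4% of all listed genes were higher and 32.1% lower after LPS in CypD-/- mice. In WT mice 29.2% were higher and 62.1% lower. Of 8 hepatocyte markers, 1 was higher and 4 lower after LPS in CypD-/- mice and the counts were the same in WT mice, and in the direct comparison 3 were higher and 1 lower. Of 11 Kupffer cell and macrophage markers, 1 was higher and 1 lower in CypD-/- mice, whereas 8 were lower and none higher in WT mice, among them *Cd5l* at 8.74-fold, *Csf1r* at 7.52-fold and *Adgre1* at 7.03-fold. *Cd5l* was 4.71-fold higher in CypD-/- + LPS than in WT + LPS livers, the only one of the 11 listed there. In CypD-/- + PBS livers *Marco* was 7.44-fold and *Cd5l* 1.72-fold lower than in WT + PBS livers. Of 10 neutrophil markers, 3 were higher after LPS in each genotype and none is listed between the LPS-treated genotypes. *S100a8* rose 52.7-fold in CypD-/- mice, against 94.0-fold in WT mice, and *S100a9* rose 110-fold in CypD-/- mice and 34.4-fold in WT mice. Of 5 monocyte markers, 3 were higher in CypD-/- mice, and 1 was higher and 1 lower in WT mice. Of 8 endothelial markers, 1 was higher and 1 lower after LPS in CypD-/- mice, and 2 higher and 2 lower in WT mice, where *Kdr* fell 10.3-fold. *Lyve1*, a sinusoidal endothelial marker, rose 7.83-fold in CypD-/- mice, against 11.7-fold in WT mice. It was 2.14-fold lower in CypD-/- + LPS than in WT + LPS livers. The other endothelial marker listed in both LPS comparisons was lower after LPS in each genotype, and 4 of the 8 are in no table. Of 4 cholangiocyte markers, *Sox9* rose 4.66-fold in WT mice and no other is listed. Stellate cell and lymphocyte markers are not listed. The tables give no level per library, so no summed marker level could be set beside *Egr1*, *Myc* or *Klf6*.

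The median span of the 10 genes from first to last base was 4.61 kb with a median of 2.5 exons in the longest transcript. The spans ran from 1.24 kb for *Ier3* to 22.0 kb for *Fosl2* and 47.7 kb for *Atf3*, and 3 of 10 (30%), the JUN genes, have a single exon. Among the 2978 of 3113 listed genes with a position in GENCODE M21 on GRCm38, the median span was 19.8 kb with 8 exons, and 1.58% had a single exon. *Ier3* lies on chromosome 17 from 35821684 to 35822923 of the plus strand with 2 exons. *Jun* spans 3189 bases of chromosome 4, from 95049034 to 95052222 of the minus strand. *Junb* lies on chromosome 8 from 84974484 to 84978718 of the minus strand, and *Jund* on chromosome 8 from 70698949 to 70700616 of the plus strand. *Klf6* spans 8.91 kb of chromosome 13, from 5861482 to 5870394, with 4 exons. *Myc* lies on chromosome 15 from 61985391 to 61990374 with 3 exons, and *Egr1* on chromosome 18 from 34859823 to 34864984 with 2. *Fosl2* lies on chromosome 5 from 32135801 to 32157842, *Fos* on chromosome 12 from 85473890 to 85477273 and *Atf3* on chromosome 1 from 191170296 to 191218039, each with 4 exons.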

How the data were processed

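Liver RNA of 3 mice per group was pooled, depleted of ribosomal RNA and sequenced on a SOLiD instrument as 1 library a group. By the methods, reads of 75 nt were mapped strand-specifically in color space to GRCm38 with CLC Genomics Workbench 6.0.1 at an unspecific match limit of 10, and the false discovery rate of Kal's test was used to compare pairs of libraries. The normalization between libraries is not given in the sources used here. For each gene a deposited table gives a signed score and a q-value. The score is the authors' fold change, with a minus sign for genes lower in the group named first, and the q-value is the authors' false discovery rate. These comparison columns are all that the 4 tables hold, so every fold is the authors' own and no test was run. The tables list 1446 genes (LPS in CypD-/- mice), 2844 (LPS in WT mice), 963 (CypD-/- over WT after LPS) and 245 (CypD-/- over WT after PBS). The smallest folds are 1.503, 1.502, 1.501 and 1.501. Folds without a finite value (6 in CypD-/- and 8 in WT mice) were left out of ranks and of the median log2 folds. They were kept in counts, in the median rises and in the percentages of rises that a gene exceeded. The depth is unknown.

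Symbols were matched without regard to letter case. Listed genes were counted by direction, log2 LPS folds were subtracted between the genotypes, and levels relative to WT + PBS are products of listed folds. The genes named are the 10 genes, *Ppif*, up to 4 genes of each other list with the largest finite folds in each LPS comparison, and every gene of the bZIP, immediate early and MYC network lists that is listed between the genotypes. Other named genes, the Y-linked genes among them, were picked with their values known. The 10 genes and all lists were chosen with earlier results of these data known, so no count is independent support. Positions are from GENCODE M21 and promoters from RefSeq. Alternatives were a fold threshold of 2, a q threshold of 0.01, symbols matched with letter case, a margin of 1.2-fold for a smaller LPS fold, a fold of 1 for missing comparisons, and, for the immediate early list, leaving out the 10 genes. Calculations used Python 3.11.15, numpy 2.4.6 and matplotlib 3.10.9, and were tested on simulated folds. Some genes are counted in the lists but are not reported here by name or drawn.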

Additional observations from a re-analysis of the deposited data

How the results depend on the processing

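Of 36 alternative values, 34 equalled the reported value or stayed within 1.5 times it. Where no gene was counted, a stricter threshold could not add one, so those alternatives were fixed in advance. At a fold of 2, a q-value of 0.01 or with letter case kept in symbols, the counts of the 10 genes stayed at 5 higher in CypD-/- mice, 8 higher in WT mice and 3 lower in CypD-/- + LPS than in WT + LPS livers, and *Klf6* was still the only one with the smaller LPS fold in CypD-/- mice, also with a margin of 1.2-fold. Taking a missing comparison as a fold of 1 gave 8 of the 10 genes a level in CypD-/- + LPS livers in place of 3, by construction, and moved that of *Klf6* to 4.54 from 5.09. Without the 10 genes, the immediate early genes lower in CypD-/- + LPS livers numbered 5 at a fold of 2 in place of 8, and the whole list 8 in place of 11. The thresholds for this list were added after seeing the data. Levels by way of CypD-/- + PBS, and LPS differences from the genotype tables, gave no value because none of the 10 genes is listed between the PBS groups. No paired analysis was possible because each group has 1 library, and for the same reason no library could be left out. The tables hold no genes under their thresholds and no depth, so a missing gene limits every count, and the part of the WT + LPS library's low Y-linked genes in the results was not tested.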
